A study of Sus scrofa with 19 samples.

Results

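HSD11B1, HSD11B2, NR3C1 and FKBP5 set how much active cortisol a cell sees and how it answers, and their transcript levels were followed here in the adrenal glands of weaned piglets. A member had to have a probe set, the group of array probes read as 1 value, whose only gene symbol in the array annotation was its own. Each of the 4 genes had 1 such probe set (HSD11B1 15332742, HSD11B2 15301909, NR3C1 15267222 and FKBP5 15315612), 4 of the 13157 probe sets with a single symbol, which stand for 12217 genes. All 4 passed the filter on low values and were tested.

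The study took 1 male piglet from each of 19 sows and measured the whole adrenal gland on 1-colour Affymetrix arrays. Sows ate a fish oil, a microalgae or a control diet from gestation day 75 onwards, and on gestation day 112 they received LPS (lipopolysaccharide, a bacterial cell wall component that provokes inflammation) or saline. All piglets of every group were weaned at 21 days, received LPS themselves at 28 days of age and were killed 2 h later, so no gland of an unchallenged piglet was measured. The question set by the design was how the sow's diet and the sow's challenge bear on the offspring's adrenal transcripts under that challenge. The groups were fish oil with maternal LPS (4 piglets, numbered 10, 19, 20 and 24 in the labels), fish oil with maternal saline (4 piglets, 9, 11, 13 and 18), microalgae with maternal LPS (2 piglets, 7 and 23), microalgae with maternal saline (3 piglets, 12, 15 and 22), control diet with maternal LPS (3 piglets, 6, 16 and 17) and control diet with maternal saline (3 piglets, 8, 14 and 21). The labels give no dose, breed or composition of the diets.

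Cortisol, made by the adrenal cortex, is switched between active and inactive forms inside cells. The enzyme encoded by HSD11B2 oxidises cortisol to inactive cortisone and is best known from the kidney, where it keeps cortisol off the mineralocorticoid receptor, and the enzyme encoded by HSD11B1, abundant in liver and fat, mainly carries out the reverse step. NR3C1 encodes the glucocorticoid receptor, which waits in the cytoplasm in a complex with HSP90 and moves to the nucleus when cortisol binds. FKBP5 encodes a cochaperone in that complex which lowers the receptor's affinity for cortisol, and its gene is itself induced by the receptor, so that it forms a short negative feedback loop.

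Values are the deposited log2 signals, so a difference of 1 is a doubling of signal. Levels of different probe sets cannot be set against each other, so comparisons are between piglets, of 1 probe set or of the difference between a pair of probe sets in the same piglet. Over the 19 arrays the mean signal of HSD11B1 was 4.53 ± 0.35 (SD), near the middle of the array, with 51.9% of probe sets at a lower mean. The mean was 6.06 ± 0.42 for HSD11B2, 5.49 ± 0.29 for NR3C1 and 7.45 ± 0.30 for FKBP5. The 4 probe sets each spanned between 1.20 and 1.34 log2 from the lowest to the highest piglet. The within-group SD, pooled over the groups, lay between 0.31 and 0.34, so that this pooled spread was about the same for all members. Single groups differed in spread. Their SD ran from 0.05 (HSD11B2, microalgae with maternal LPS, 2 piglets) to 0.64 (HSD11B2, microalgae with maternal saline, 3 piglets). For NR3C1 it was 0.08 in fish oil with saline and 0.51 in fish oil with LPS. In whole-gland RNA, fewer cells of a type and less RNA per cell cannot be told apart.

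The labelled tissue was checked against its marker genes. CYP17A1, the steroid hydroxylase of the cortisol-making zone, lay between 11.9 and 12.6 in all 19 piglets, and 7 of 16 listed cortex markers had a tested probe set of their own. CYP17A1 had the highest mean of the 7. Means were 11.4 for SCARB1, 11.2 for CYP21A2, 11.1 for HSD3B1 and 6.74 for FDXR. NR0B1 at 3.91 and SULT2A1 at 3.26 were low beside the filter floor of 3.23. All 7 entered the cortex score used below. Arrays of piglets 24 (fish oil with maternal LPS) and 6 (control diet with maternal LPS) had the narrowest spread of values, with interquartile ranges of 2.27 and 2.39 log2, against 2.44 to 2.65 in the other 17 piglets. Piglet 14 (control diet with maternal saline) stood apart in liver genes, with the mean of 6 tested liver markers at 5.65, and ALB, which encodes albumin, reached 7.30 at most over the 19 piglets against a mean of 3.42.

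**Figure D1:**
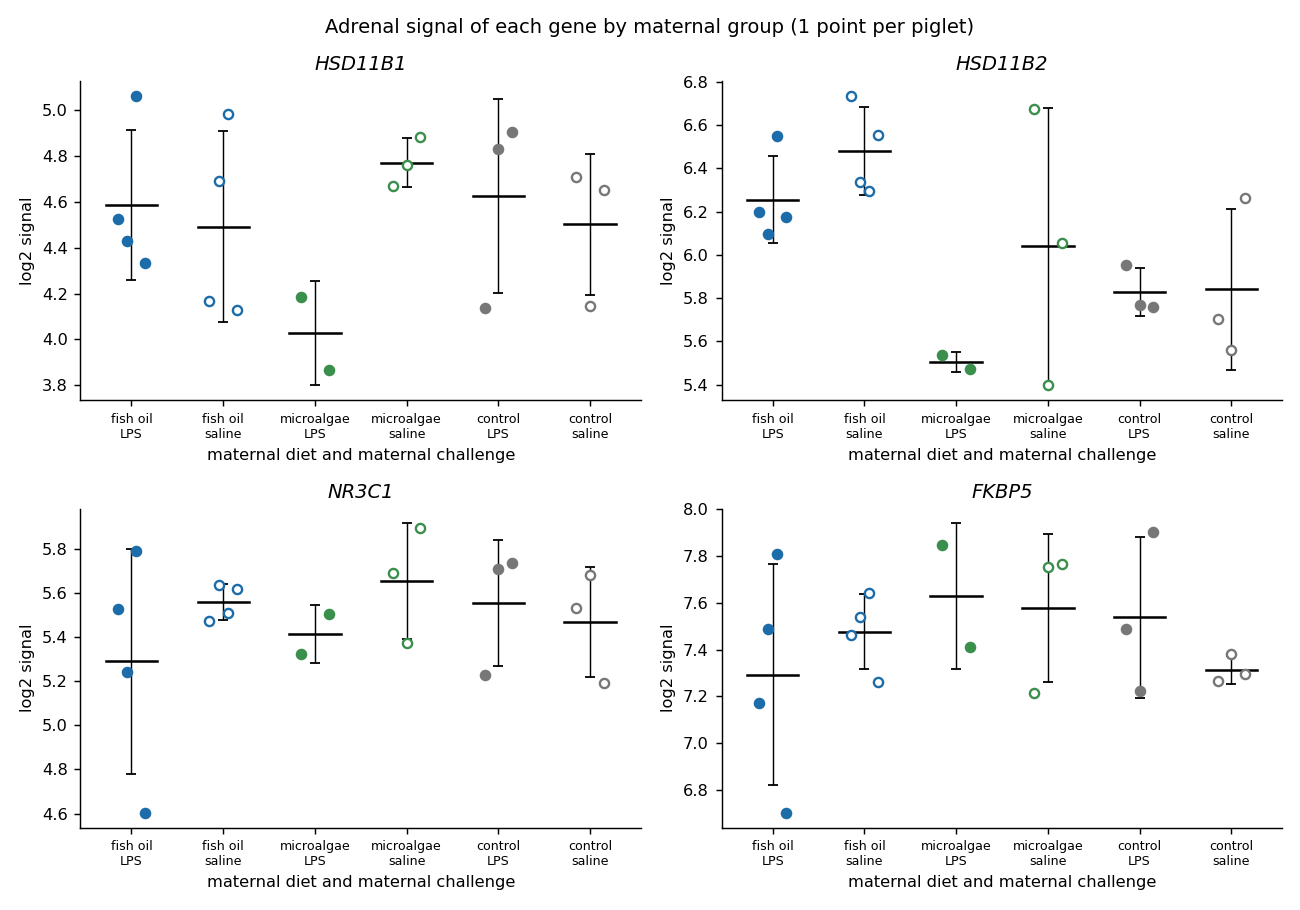
The deposited log2 signal (vertical axis) of each piglet is plotted by group for HSD11B1, HSD11B2, NR3C1 and FKBP5, with the group mean and SD as bar and whiskers. HSD11B2 lies above the control-diet piglets of the same maternal challenge in both fish oil groups, the lowest group mean of HSD11B1 is that of the 2 microalgae piglets after maternal LPS (4.03), and NR3C1 and FKBP5 share their lowest value in piglet 24.

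HSD11B2, the cortisol-inactivating enzyme, was the member that differed most by diet. Its signal was 6.20, 6.10, 6.55 and 6.17 in piglets 10, 19, 20 and 24 of the group with fish oil and maternal LPS, against 5.95, 5.77 and 5.76 in piglets 6, 16 and 17 with control diet and maternal LPS. After maternal saline it was 6.74, 6.34, 6.29 and 6.55 in fish oil piglets 9, 11, 13 and 18, against 5.70, 5.56 and 6.26 in control-diet piglets 8, 14 and 21. Within each maternal challenge every fish oil piglet was above every control-diet piglet. Across the challenges the groups overlapped through 1 piglet: 5 of the 6 control-diet piglets lay below all 8 fish oil piglets, and piglet 21 lay above 3 of them.

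Averaged over both maternal challenges, HSD11B2 was 6.37 with fish oil and 5.83 with control diet, a difference of 0.53 ± 0.166 log2 (SE), or 1.45-fold with a 95% confidence interval of 1.14 to 1.84. The unadjusted p of limma, which fits each probe set and draws its variance towards a prior taken from all probe sets, was 0.00492. The p adjusted by Benjamini-Hochberg over the 20668 probe sets tested was 1, so the difference did not pass the threshold of 0.05. No probe set passed it in this comparison (0% called), and 555 had an unadjusted p under 0.05 (2.69%), of which 288 were higher with fish oil (1.39%). HSD11B2 ranked 45 of 20668 by p. An exact permutation test of the single value, with diet labels exchanged within each maternal challenge, gave a two-sided p of 0.000816, the smallest that the 1225 arrangements allow. HSD11B2 was already known to be among the largest differences in these data when the genes were chosen, so that p describes the arrangement of the piglets and is not independent evidence.

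By maternal challenge, the difference between fish oil and control diet was 0.64 log2 after saline (95% confidence interval 0.15 to 1.13) and 0.43 log2 after LPS (−0.07 to 0.92). All fish oil piglets were above all control-diet piglets in 2.21% of probe sets after saline, in 1.78% after LPS and in 0.0629% (13 probe sets, HSD11B2 among them) in both. The effect of maternal LPS on HSD11B2 with fish oil minus that with control diet was −0.21 ± 0.331 log2 (limma, unadjusted p = 0.53), with an interval of −0.91 to 0.48, so that no difference between the challenges was detectable at this spread. It was −0.07 without piglet 14, −0.13 without piglet 9, −0.12 without piglets 6 and 24, −0.42 without piglet 21 and −0.03 with the macrophage score as covariate. None of the 20668 probe sets passed the adjusted threshold in that interaction (0%), and 545 had an unadjusted p under 0.05 (2.64%).

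HSD11B2 in microalgae piglets was spread over almost the whole range seen. It was 5.54 and 5.47 in piglets 7 and 23 after maternal LPS, and 6.67, 5.40 and 6.05 in piglets 12, 15 and 22 after maternal saline. The microalgae group after saline thus held both the lowest of all 19 piglets, piglet 15, and the second highest, piglet 12. Microalgae minus control diet was −0.06 ± 0.188 log2 over both challenges (interval −0.46 to 0.33; limma adjusted p = 1), and the sign turned without piglet 15 (0.10) or without piglet 21 (0.04). After maternal LPS both microalgae piglets lay below all 3 control-diet piglets, as 8.06% of probe sets did in this 2-against-3 comparison.

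Fish oil minus microalgae, 2 diets that both supply long-chain omega-3 fatty acids, was 0.59 ± 0.177 log2 for HSD11B2, from a mean of 6.37 with fish oil and 5.77 with microalgae (1.51-fold, interval 1.17 to 1.95; limma unadjusted p = 0.00363, adjusted p = 1, rank 24 of 20668). The exact permutation p was 0.00952. None of the 20668 probe sets passed in this comparison (0%), and 590 had an unadjusted p under 0.05 (2.85%). The comparison uses the same fish oil piglets as the comparison with control diet. HSD11B2 was chosen with earlier results of these data known, so these p-values are not independent evidence either. All 4 fish oil piglets were above both microalgae piglets after maternal LPS, which held for 5.7% of probe sets, and the groups overlapped after maternal saline.

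In descending order the mean HSD11B2 level was highest in fish oil with saline (6.48 ± 0.21), followed by fish oil with LPS (6.25 ± 0.20), microalgae with saline (6.04 ± 0.64), control diet with saline (5.84 ± 0.37), control diet with LPS (5.83 ± 0.11) and microalgae with LPS (5.51 ± 0.05, SD; n = 4, 4, 3, 3, 3 and 2). The ranges of neighbours in that order overlapped, apart from the last pair. Maternal LPS minus saline over the 3 diets was −0.26 log2 (interval −0.56 to 0.05; limma unadjusted p = 0.0918, adjusted p = 0.711), and ran from −0.37 without piglet 15 (unadjusted p = 0.00858, adjusted p = 0.512) to −0.15 without piglet 12 (unadjusted p = 0.235). In that comparison 2 of 20668 probe sets passed the adjusted threshold (0.00968%) and 1440 had an unadjusted p under 0.05 (6.97%), and no member was among either.

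**Figure D2:**
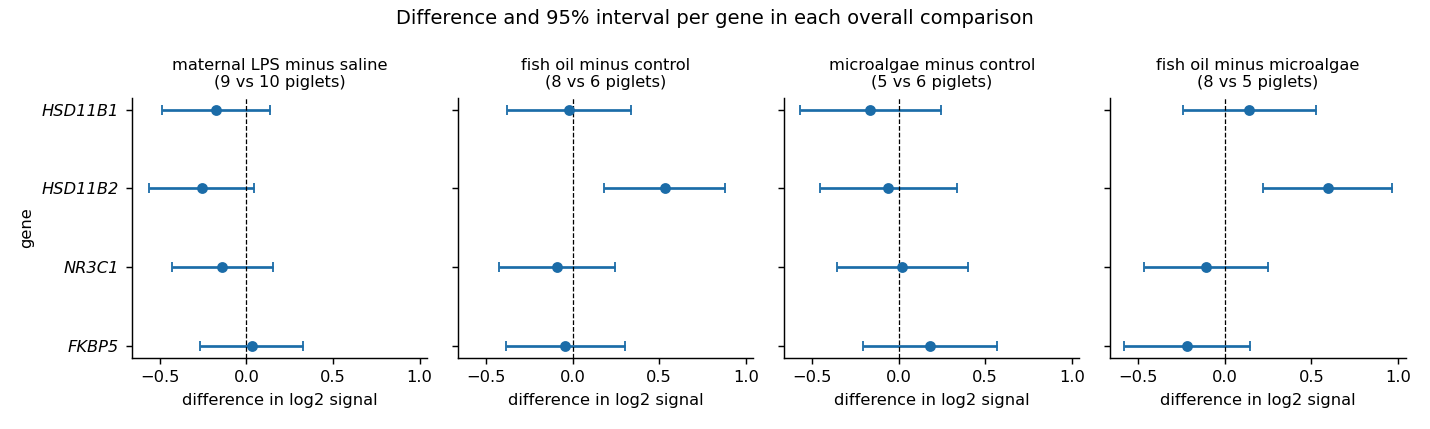
Differences in log2 signal (horizontal axis) with 95% confidence intervals from limma are drawn for each member in the main comparisons. The intervals of HSD11B2 for fish oil minus control diet (0.18 to 0.88) and fish oil minus microalgae (0.22 to 0.97) do not include 0, and those of the other members in these comparisons do.

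Markers of other cells were set beside the HSD11B2 difference. Of 14 tested fibroblast and capsule markers, 11 were lower with fish oil than with control diet, with a median difference of −0.46 log2. An unadjusted p under 0.05 was reached by 5 of the 14, all lower, against 1.29% of all probe sets in that direction, among them COL1A1 (−1.06) and COL3A1 (−0.84), which encode collagens. The mean level of that list ran from 5.09 to 6.55 in fish oil piglets after maternal LPS and from 5.17 to 6.05 after saline, against 5.16 to 6.79 and 5.60 to 6.96 in control-diet piglets.

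Markers of macrophages, lymphocytes and the adrenal cortex, like HSD11B2, were mostly above control diet with fish oil. So were 7 of 10 endothelium markers (median 0.12 log2) and 4 of 6 neutrophil markers (median 0.07), with 0 at an unadjusted p under 0.05. Of medulla markers 6 of 9 were below control diet, and of liver markers 5 of 6. With fish oil 11 of 11 tested macrophage markers were above control diet (median 0.18 log2, 0 at an unadjusted p under 0.05), 8 of 10 lymphocyte markers (median 0.20, 2 higher at that p) and 6 of 7 cortex markers (median 0.14, 1 higher at that p), against 10414 of all 20668 probe sets above and 1.39% higher at that p. The cortex marker past it was CYP21A2, the steroid 21-hydroxylase (0.30 ± 0.119, SE; limma unadjusted p = 0.0232). After maternal saline the median of the macrophage markers was 0.47, with 11 of 11 above and 3 of 11 at an unadjusted p under 0.05, as were 1.13% of probe sets in that direction, and after maternal LPS it was −0.07, with 5 of 11 above. The mean macrophage level lay between 5.005 and 5.49 in fish oil piglets after maternal LPS and between 5.03 and 5.85 after saline, against 5.31 to 5.41 and 4.84 to 5.14 in control-diet piglets. The mean cortex level lay between 8.49 and 8.72 and between 8.59 and 8.67 in the same fish oil groups, against 8.40 to 8.58 and 8.36 to 8.66 with control diet.

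Kidney tissue, a rich source of HSD11B2, lies next to the adrenal gland, and of 14 listed tubule markers 5 were tested, 3 of them lower with fish oil, with a median difference of −0.10. Their mean level lay between 3.54 and 3.98 in all 19 piglets, with a filter floor of 3.23. UMOD and CUBN, of other tubule segments, reached 3.98 and 4.25 at most and differed by −0.14 and −0.10 between fish oil and control diet. The water channel genes AQP2 and AQP3 and the sodium channel gene SCNN1G, active in the collecting duct, where kidney HSD11B2 is also found, reached 4.77, 4.73 and 3.53 at most and differed by −0.18, 0.01 and 0.13.

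With 1 marker score at a time as a covariate, the HSD11B2 difference between fish oil and control diet was lowest with the adrenal cortex score, at 0.39 log2 (limma unadjusted p = 0.0496). In limma it was 0.48 with the macrophage score (unadjusted p = 0.0157), 0.48 with the fibroblast and capsule score (unadjusted p = 0.0136) and 0.56 with the lymphocyte score (unadjusted p = 0.0126). It was 0.52 with the kidney tubule score, 0.55 with the adrenal medulla score and 0.50 with the array spread, and no covariate took it past the adjusted threshold. After maternal LPS alone it was 0.26 with the cortex score, against 0.43 without it. After maternal saline alone it was 0.49 with the macrophage score (limma unadjusted p = 0.105), against 0.64 without that score. The fits with the macrophage, lymphocyte and cortex scores were chosen after seeing the data. Without piglet 14 the difference was 0.46.

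HSD11B1, the cortisol-regenerating enzyme, differed by −0.02 log2 between fish oil and control diet and had its lowest group mean in microalgae piglets after maternal LPS. Its signal in piglets 7 and 23 of that group was 4.19 and 3.87, against 4.67, 4.76 and 4.89 in piglets 12, 15 and 22 of the microalgae group after maternal saline. Neither value of the maternal LPS group reached the saline group's range. The difference was −0.75 ± 0.288 log2, or 0.60-fold (limma unadjusted p = 0.0186, adjusted p = 0.346), and the exact permutation p of 0.1 was the smallest that 2 against 3 piglets allow. Lack of overlap in this direction occurred in 14.7% of probe sets, and 2411 of 20668 had an unadjusted p under 0.05 (11.7%) with 0 past the adjusted threshold, so HSD11B1 did not stand out from the array in this comparison.

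With fish oil HSD11B1 was 4.53, 4.43, 5.07 and 4.33 in piglets 10, 19, 20 and 24 after maternal LPS and 4.17, 4.69, 4.98 and 4.13 in piglets 9, 11, 13 and 18 after saline. With control diet it was 4.14, 4.83 and 4.91 in piglets 6, 16 and 17 after maternal LPS and 4.71, 4.15 and 4.65 in piglets 8, 14 and 21 after saline. These 4 groups lay over each other. Fish oil minus control diet was −0.02 log2 with an interval of −0.38 to 0.33, which overlaps the HSD11B2 interval of 0.18 to 0.88. The order of group means was microalgae with saline (4.77 ± 0.11), control diet with LPS (4.63 ± 0.42), fish oil with LPS (4.59 ± 0.33), control diet with saline (4.50 ± 0.31), fish oil with saline (4.49 ± 0.42) and microalgae with LPS (4.03 ± 0.23, SD), and the ranges of all neighbours overlapped.

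The effect of maternal LPS on HSD11B1 with microalgae minus that with control diet was −0.87 ± 0.386 log2 (limma unadjusted p = 0.0374, adjusted p = 0.858; exact permutation p = 0.08). In this interaction 1118 probe sets had an unadjusted p under 0.05 (5.41%) and 0 passed the adjusted threshold. The value was −0.69 without piglet 14 and −1.11 without piglet 6, the control-diet piglets with the liver genes and with a narrow array. Over the 3 diets maternal LPS minus saline was −0.18 log2 (interval −0.49 to 0.14), −0.09 without piglet 6 and −0.07 without piglets 6 and 24. Microalgae minus control diet was −0.16 log2 (−0.57 to 0.24), −0.29 without piglet 6, −0.25 without piglet 14, −0.09 without piglet 17 and −0.08 without piglet 23. Fish oil minus microalgae was 0.14 log2 (−0.24 to 0.52) over both challenges and −0.28 (−0.79 to 0.23) after maternal saline. After maternal LPS it was 0.56 (−0.01 to 1.14; limma unadjusted p = 0.0547, adjusted p = 0.709). There all 4 fish oil piglets were above the 2 microalgae piglets in HSD11B1, as in 5.7% of probe sets.

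Because the enzymes run opposite steps, the log2 value of HSD11B1 minus that of HSD11B2 was taken in each piglet as a description of their relative change. It averaged −1.67 ± 0.15 in fish oil piglets after maternal LPS and −1.99 ± 0.61 after saline, against −1.20 ± 0.53 and −1.34 ± 0.31 in control-diet piglets (SD). The fish oil mean over both challenges was −1.83 and the control mean −1.27, a difference of −0.56 log2, nearly all of it from HSD11B2. Microalgae piglets averaged −1.48 ± 0.18 after maternal LPS and −1.27 ± 0.69 after saline. The fish oil groups and the control groups overlapped: piglet 6 of the control diet, at −1.82, lay lower than 5 of the 8 fish oil piglets.

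**Figure D3:**
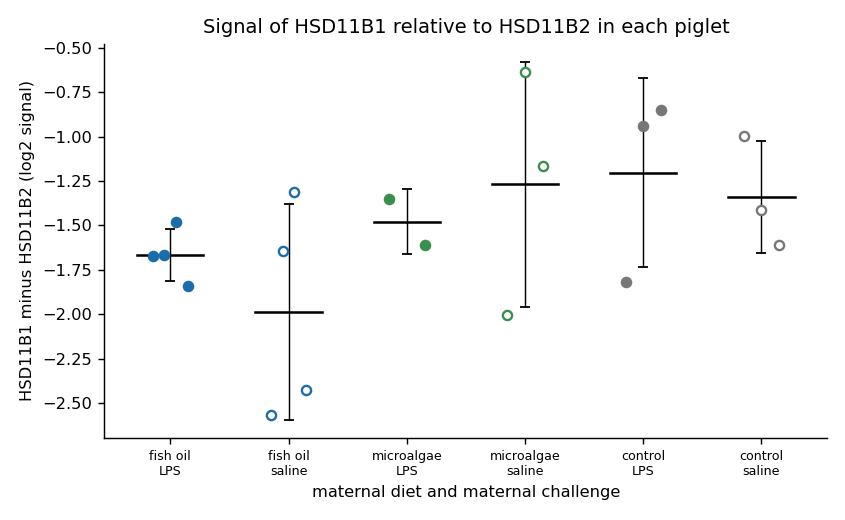
For each piglet the log2 signal of HSD11B1 minus that of HSD11B2 (vertical axis) is plotted by group, with the mean and SD of the group. The fish oil groups have the lowest means (−1.67 and −1.99) and overlap with the control-diet groups (−1.20 and −1.34), and the zero of the axis has no meaning because the probe sets differ.

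NR3C1, the receptor gene, showed no difference by diet or maternal challenge beyond the spread between piglets in the fits without covariates. With fish oil its signal was 5.53, 5.24, 5.79 and 4.60 in piglets 10, 19, 20 and 24 after maternal LPS, and 5.47, 5.64, 5.51 and 5.62 in piglets 9, 11, 13 and 18 after saline. It was 5.32 and 5.51 in microalgae piglets 7 and 23 after maternal LPS, and 5.69, 5.37 and 5.90 in piglets 12, 15 and 22 after saline. With control diet it was 5.23, 5.71 and 5.74 in piglets 6, 16 and 17 after maternal LPS, and 5.53, 5.68 and 5.19 in piglets 8, 14 and 21 after saline. Piglet 24 was the lowest of the 19 piglets, with piglet 21 next, and the ranges of all 6 groups overlapped.

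Maternal LPS minus saline for NR3C1 was −0.14 log2 over the 3 diets (95% confidence interval −0.43 to 0.15; limma adjusted p = 0.802). Without piglets 6 and 24, the narrow arrays, it was −0.01. The effect of maternal LPS with fish oil minus that with control diet was −0.36 (−1.03 to 0.31). It was −0.57 with the fibroblast and capsule score as covariate (limma unadjusted p = 0.0239) and −0.16 with the kidney tubule score. For microalgae against control diet the same effect was −0.33 (−1.09 to 0.43). None passed the adjusted threshold. Fish oil minus control diet was −0.09 (−0.42 to 0.25) and turned to 0.03 without piglet 24. Microalgae minus control diet was 0.02 (−0.36 to 0.40), and fish oil minus microalgae was −0.11 (−0.47 to 0.25). After maternal saline, fish oil minus control diet was 0.09, and 0.37 with the fibroblast and capsule score as covariate (limma unadjusted p = 0.0465). After maternal LPS it was −0.27, and −0.36 with the array spread as covariate (limma unadjusted p = 0.0264). With the other of these covariates it was 0.02 after saline and −0.20 after LPS, and none passed the adjusted threshold. The order of group means was microalgae with saline (5.65 ± 0.26), fish oil with saline (5.56 ± 0.08), control diet with LPS (5.56 ± 0.29), control diet with saline (5.47 ± 0.25), microalgae with LPS (5.41 ± 0.13) and fish oil with LPS (5.29 ± 0.51, SD), with no pair of neighbours apart.

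FKBP5, both a regulator and a target of the receptor, likewise showed no difference between groups beyond that spread in the fits without covariates. With fish oil its signal was 7.17, 7.49, 7.81 and 6.70 in piglets 10, 19, 20 and 24 after maternal LPS, and 7.46, 7.54, 7.64 and 7.26 in piglets 9, 11, 13 and 18 after saline. It was 7.85 and 7.41 in microalgae piglets 7 and 23 after maternal LPS, and 7.21, 7.75 and 7.77 in piglets 12, 15 and 22 after saline. With control diet it was 7.49, 7.22 and 7.90 in piglets 6, 16 and 17 after maternal LPS, and 7.27, 7.38 and 7.29 in piglets 8, 14 and 21 after saline. Piglet 24 was again the lowest of all, and the highest was a control-diet piglet, 17.

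Maternal LPS minus saline for FKBP5 was 0.03 log2 (interval −0.27 to 0.33; limma adjusted p = 0.967), and its sign turned when arrays were centred on their medians (−0.01). The effect of maternal LPS with fish oil minus that with control diet was −0.41 (−1.09 to 0.27). It was −0.84 with the macrophage score as covariate (limma unadjusted p = 0.0224, adjusted p = 0.876). For microalgae against control diet the same effect was −0.17 (−0.95 to 0.60). Fish oil minus control diet was −0.04 (−0.38 to 0.30) and 0.06 without piglet 24. Microalgae minus control diet was 0.18 (−0.21 to 0.57), a comparison in which 340 probe sets had an unadjusted p under 0.05 (1.65%) and 0 passed the adjusted threshold. It was 0.07 without piglet 7, 0.10 without piglet 16, 0.27 without piglet 12 or piglet 17, 0.29 without piglet 23, and 0.40 with the lymphocyte score as covariate (limma unadjusted p = 0.0268, adjusted p = 0.991). Fish oil minus microalgae was −0.22 (−0.58 to 0.15), and ran from −0.33 without piglet 23 to −0.11 without piglet 7, with −0.12 without piglet 24. The group means ran from 7.63 ± 0.31 in microalgae with LPS over microalgae with saline (7.58 ± 0.32), control diet with LPS (7.54 ± 0.34), fish oil with saline (7.48 ± 0.16) and control diet with saline (7.31 ± 0.06) to 7.29 ± 0.47 in fish oil with LPS (SD), and neighbouring ranges overlapped throughout.

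The members were also compared with each other over the 19 piglets. Of 10 relations, 6 between members and 4 with the score of glucocorticoid target genes, none passed 0.05 after Benjamini-Hochberg adjustment of permutation p-values. NR3C1 and FKBP5 had a Pearson r of 0.52 (permutation p = 0.0273, adjusted 0.0683) and a Spearman rho of 0.20 (p = 0.417), and r was −0.01 without piglets 22 and 24, the farthest from the median of NR3C1, so that the relation rested on those piglets. HSD11B1 and HSD11B2, which encode the opposed enzymes, had an r of 0.17 over the 19 piglets (permutation p = 0.494). With group means removed, no relation of this set had an adjusted p below 0.203.

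The target gene score, the mean relative log2 value of 22 tested genes that the receptor is known to induce, had an r of 0.60 with NR3C1 (permutation p = 0.00882, adjusted 0.0683) and a rho of 0.52, and r was 0.46 without piglets 22 and 24 (p = 0.0609). With HSD11B1 it had an r of 0.55 (p = 0.014, adjusted 0.0683) and a rho of 0.54, and r was 0.71 without piglets 18 and 23. With FKBP5 r was 0.52 (permutation p = 0.0234, adjusted 0.0683) and 0.20 without piglets 17 and 24. The score was lowest in piglet 24 (−0.25) and highest in piglet 20 (0.32), both of the group with fish oil and maternal LPS.

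After the data were seen, 12 further relations were computed, of each member with the array spread and with the scores of medulla and of fibroblast and capsule markers. NR3C1 followed the fibroblast and capsule score, with r = 0.68 (permutation p = 0.00065, adjusted 0.0057) and rho = 0.75 (adjusted 0.0048), and r was 0.55 without piglets 22 and 24 (p = 0.0218). With group means removed r was 0.80 (adjusted 0.0218), and 0.76 without piglets 20 and 24. NR3C1 also followed the array spread, with r = 0.74 (permutation p = 0.00095, adjusted 0.0057), but rho was 0.59 (adjusted 0.0535) and r was 0.43 without piglets 22 and 24 (p = 0.0864). With group means removed r was 0.82 with the array spread (permutation p = 0.012, adjusted 0.0722), rho was 0.62, and r was 0.61 without piglets 20 and 24 (p = 0.0792). HSD11B1 had an r of 0.47 with the fibroblast and capsule score (permutation p = 0.0414, adjusted 0.165) and a rho of 0.53 (adjusted 0.0671). Its r with the array spread was 0.44 (permutation p = 0.0556, adjusted 0.167). With group means removed these r of HSD11B1 were 0.51 and 0.44 (adjusted 0.296 each). HSD11B2 had an r of −0.34 with the fibroblast and capsule score (permutation p = 0.156, adjusted 0.26) and a rho of −0.31. With the array spread its r was 0.41 (permutation p = 0.079, adjusted 0.19) and its rho 0.53 (permutation p = 0.0203, adjusted 0.0671). With group means removed, r and rho of HSD11B2 with the array spread were 0.31 and 0.30.

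**Figure D4:**
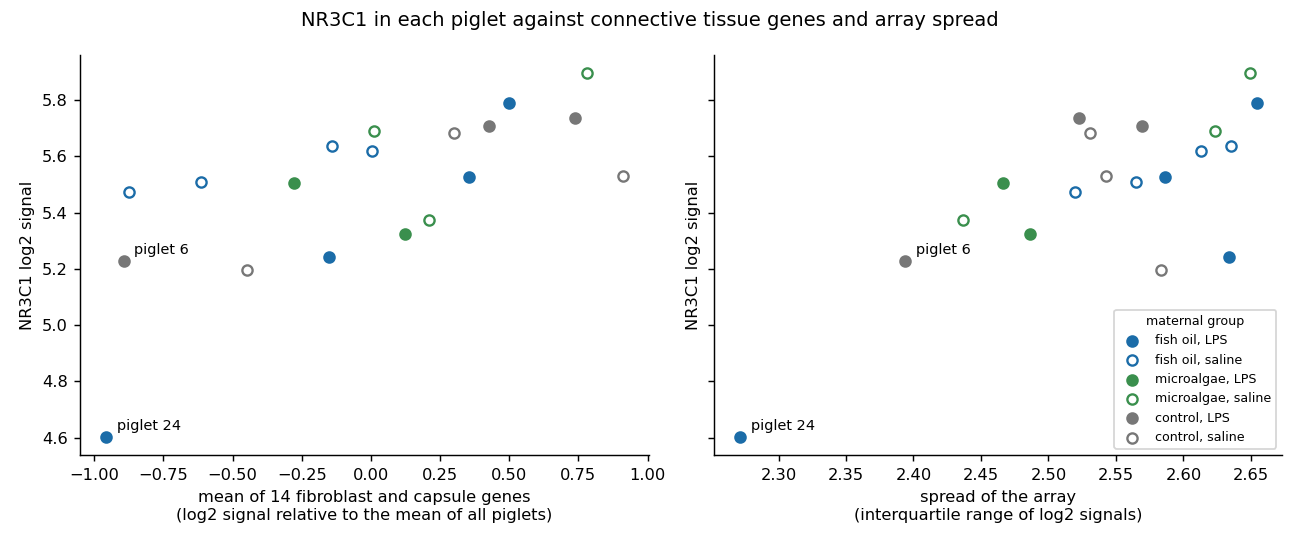
NR3C1 log2 signal is plotted against the mean relative log2 value of fibroblast and capsule markers and against the interquartile range of each array (log2), 1 point per piglet. Piglet 24 lies at the low end of both, and r was 0.68 with the marker score and 0.74 with the array spread.

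For each member, the 5 genes with the most similar pattern over the 19 piglets were taken from 9991 other genes by Pearson r after removal of the group means. For HSD11B2 they were CHTOP (0.85), a chromatin-bound RNA export factor, the sialic acid esterase SIAE (0.82), the tyrosine kinase FYN (0.82), the circadian transcription factor DBP (0.81) and the NADPH oxidase NOX4 (0.80). For HSD11B1 they were CNTLN (0.89), ING2 (0.86), NUF2 (0.85), SERAC1 (0.83) and ZNF277 (0.81). For NR3C1 they were IFT57 (0.92), which serves transport in cilia, the non-muscle myosin heavy chain MYH10 (0.91), TMEM68 (0.89), TRIM23 (0.87) and the autophagy kinase ULK1 (0.87). For FKBP5 they were N4BP2 (0.93), FAM160A1 (0.87), the phosphoinositide phosphatase SACM1L (0.87), C16H5orf42 (0.86) and the translation inhibitor PDCD4 (0.86). With so many genes searched on 19 arrays these values only describe the ranking.

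The genes around the 4 members were read from lists, and none of their tested members passed the adjusted threshold in any of the 4 overall comparisons. Of 12 genes of cortisol metabolism and transport, 4 were tested. In fish oil against control diet SRD5A1, which reduces testosterone and other steroids, differed by 0.03 log2, AKR1D1, a steroid reductase of the liver, by −0.21, SERPINA6, which encodes the cortisol-binding globulin of plasma, by 0.07, and SULT2A1, the steroid sulfotransferase, by −0.03. Their mean signals were 5.89, 3.82, 4.18 and 3.26 in that order, beside a filter floor of 3.23. The lowest piglet of SULT2A1, at 2.92, lay under that floor. Of 5 other steroid receptors 3 were tested, and NR3C2, the mineralocorticoid receptor that HSD11B2 shields in kidney, differed by −0.13 log2 (interval −0.49 to 0.22).

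Chaperones and cochaperones of the receptor were measured by 12 of 16 listed genes. With fish oil 11 of the 12 were above control diet, with a median difference of 0.04 log2, and 0 of them at an unadjusted p under 0.05, whereas 10414 of all 20668 probe sets were above. Quantile normalization left 7 of the 12 above. HSP90AB1, an HSP90 subunit, differed by 0.11, FKBP4, the cochaperone that FKBP5 competes with, by 0.17, and PTGES3, the p23 cochaperone, by 0.06. With microalgae 11 of 12 were above control diet (median 0.09), against 10531 of all 20668. After maternal LPS 4 of 12 were above saline (median −0.02).

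Receptor coregulators, the coactivators and corepressors that the DNA-bound receptor recruits, were measured by 12 of 16 genes. With fish oil 11 of 12 were above control diet, with a median of 0.07 log2, 9 of 12 after quantile normalization. After maternal LPS 10 of 12 were below saline, with a median of −0.15 log2, against 9952 of all 20668 probe sets, and 0 had an unadjusted p under 0.05. That median was −0.08 after quantile normalization.

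Of 34 glucocorticoid target genes 22 were tested, and with fish oil 7 were above and 15 below control diet (median −0.03 log2). TSC22D3, which encodes the anti-inflammatory protein GILZ, differed by 0.20 ± 0.118, PER1, a clock gene, by 0.01 ± 0.157, DUSP1, a MAP kinase phosphatase, by −0.00048 ± 0.205, and KLF9, a transcription factor, by −0.25 ± 0.129 (SE; limma unadjusted p = 0.117, 0.933, 0.998 and 0.0707). After maternal LPS 11 were above and 11 below saline (median −0.01), and in this list 3 genes had an unadjusted p under 0.05 with adjusted p of 0.687 each, beside 6.97% of all probe sets at that unadjusted p. They were the transcription factor FOXO1 (0.28 ± 0.118), the repressor BCL6 (−0.35 ± 0.149) and the cell cycle inhibitor CDKN1A (−0.30 ± 0.126). FOXO1 had a mean signal of 3.54, and its lowest piglet, at 2.96, lay under the filter floor of 3.23. With arrays centred on their medians, which lowered this difference in all probe sets alike, 6 were above and 16 below, and 8335 of all 20668 probe sets were above. Maternal LPS minus saline was 0.13 for TSC22D3, 0.10 for PER1, −0.10 for DUSP1 and −0.05 for KLF9, none with an unadjusted p under 0.05. With microalgae 11 were above and 11 below control diet, KLF9 at −0.28 ± 0.147 and TSC22D3 at 0.06 ± 0.134. In the interaction of maternal LPS with diet, 2 of the 22 lay below 0 at an unadjusted p under 0.05 for fish oil against control diet, as did 1.6% of all probe sets, and 3 of the 22 for microalgae against control diet, as did 2.54%.

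**Figure D5:**
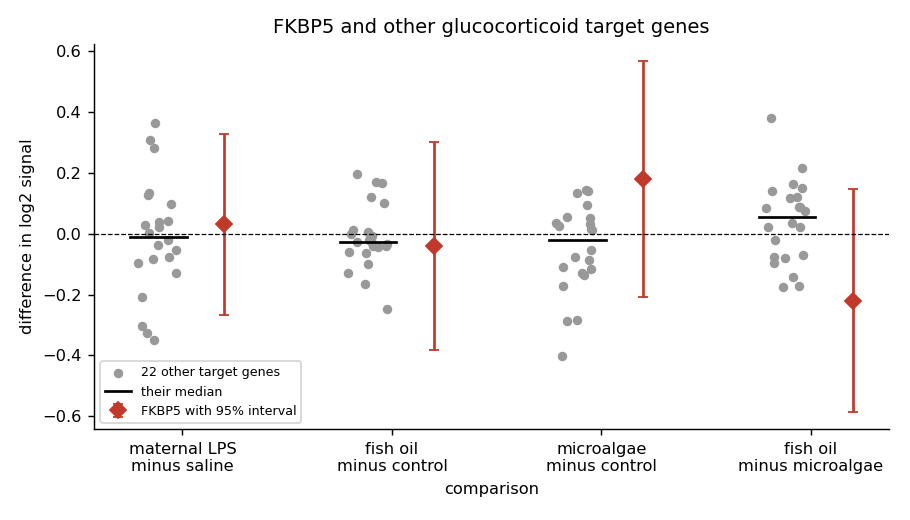
For each overall comparison (horizontal axis) the difference in log2 signal (vertical axis) is drawn for the 22 tested glucocorticoid target genes as grey points with their median as a black line, and for FKBP5 as a red diamond with its 95% confidence interval from limma. The medians lie between −0.03 and 0.05, and the interval of FKBP5 includes 0 in all 4 comparisons.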

How the data were processed

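Per the labels' protocols, adrenal RNA of 19 piglets was extracted with a Qiagen kit and hybridised after biotin labelling. The authors deposited log2 signals, 1 column per piglet. The base was inferred from the range, 0.263 to 13.5, and array medians lay between 4.38 and 4.52. Transcriptome Analysis Console 4.0 was used, per the submitters' processing notes. The summarization and normalization are not given in the sources used here, and any compression of signals at that step would carry into every difference. Control probe sets could not be identified and stayed in.

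Probe sets with a mean under 3.23, the lowest 25%, were dropped, which left 20668 of 27558 for testing. R 4.3.3 with limma 3.58.1 fitted 1 mean per group, with a variance prior that followed intensity (13 residual and 4.62 prior degrees of freedom). Adjustment by Benjamini-Hochberg covered every probe set tested, at a threshold of 0.05. Overall effects average over the levels of the other factor, and all tests were two-sided. Permutation tests of single values were exact, and correlations used 100000 resamples. The workflow was tested on simulated data.

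The members and gene lists were chosen with earlier results of these data known. For that reason no p is given for HSD11B1 minus HSD11B2. Named genes are the members, 12 fixed pathway genes where tested (H6PD, SGK1, HSP90AA1 and ZBTB16 were not), the 5 most similar genes of each member, and up to 4 genes a list with the smallest unadjusted p under 0.05 in an overall comparison. SRD5A1, AKR1D1, SERPINA6, SULT2A1 and the marker genes were named after their values were seen. No sequences or coordinates were used here. The number of arrays limits the precision.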

Additional observations from a re-analysis of the deposited data

How the results depend on the processing

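No member passed the adjusted threshold in limma under any alternative tried for the values reported. HSD11B2 in fish oil against control diet stayed between 0.46 and 0.64 log2 with each piglet left out (lowest without piglet 14, highest without piglet 21) and between 0.39 and 0.58 under the other alternatives, with adjusted p of 0.807 or more in all of them. For HSD11B2 the exact permutation p of the single value, which is unadjusted, was under 0.05 in some comparisons where limma's adjusted p was not. These were fish oil against control diet (difference 0.53 log2), against microalgae (0.59 log2), and against control diet after saline (0.64 log2) and after LPS (0.43 log2). Within each maternal challenge that permutation p was 0.0286, the smallest that 35 arrangements allow, and restates the lack of overlap. HSD11B2 was already known to be among the largest differences when the genes were chosen, so these p-values are not independent evidence. HSD11B2 in fish oil against microalgae ran from 0.43 without piglet 15 to 0.75 without piglet 12.

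Small differences turned sign, and the cause was not tested. With the fibroblast and capsule score as covariate, fish oil minus control diet became 0.094 for HSD11B1, 0.082 for NR3C1 and 0.054 for FKBP5, and fish oil minus microalgae became 0.042 for NR3C1. With the macrophage, lymphocyte and adrenal cortex scores as covariates, alternatives chosen after seeing the data, fish oil minus control diet became 0.091, 0.14 and 0.11 for HSD11B1 and 0.091, 0.22 and 0.16 for FKBP5, became 0.054 for NR3C1 with the lymphocyte score, and maternal LPS minus saline became −0.075 for FKBP5 with the cortex score. With the array spread as covariate, maternal LPS minus saline became 0.016 for NR3C1, and with centred arrays −0.014 for FKBP5. Microalgae minus control diet for NR3C1 became −0.063 with array weights and −0.036 with the kidney tubule score. Without piglets 6 and 24, an alternative chosen after seeing the data, fish oil minus control diet became 0.045 for FKBP5, microalgae minus control diet −0.061 for NR3C1, and fish oil minus microalgae 0.0057 for NR3C1.

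With each piglet left out in turn, maternal LPS minus saline for FKBP5 ran from −0.043 to 0.10. Fish oil minus control diet ran from −0.15 to 0.047 for HSD11B1, from −0.17 to 0.027 for NR3C1 and from −0.13 to 0.057 for FKBP5. Microalgae minus control diet ran from −0.22 to 0.10 for HSD11B2 and from −0.061 to 0.091 for NR3C1, and fish oil minus microalgae from −0.19 to 0.0057 for NR3C1. HSD11B1 minus HSD11B2 ran from −0.040 to 0.19 for maternal LPS, from −0.71 to −0.46 for fish oil against control diet (−0.52 after quantile normalization), from −0.26 to 0.080 for microalgae against control diet and from −0.64 to −0.29 for fish oil against microalgae. The correlation of HSD11B1 with HSD11B2 was −0.030 with group means removed, and that of HSD11B2 with NR3C1 was −0.063 after quantile normalization.

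For maternal LPS, 2 probe sets passed over the whole array, none of them a member. That count was 9 with array weights, 12 without piglet 7, 2 without piglet 14, 0 or 1 without any other single piglet, and 0 with no filter, with quantile normalization, in the additive model and with each covariate except the lymphocyte score (2) and the adrenal cortex score (1). Recomputations also covered 39 further interactions and differences within 1 diet or challenge, all those of NR3C1 and FKBP5 among them. They kept their sign in 1260 of 1326 recomputations, and the 16 that turned were all under 0.2 log2 in size.

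The median SE over probe sets was 0.14 log2 for fish oil and 0.16 for microalgae against control diet, which limits what these group sizes detect. Each member had a single probe set, so the planned comparison of probe sets of a gene was not run. No paired analysis was possible because the groups share no piglet numbers.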

Other observations

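Glucocorticoid target genes, and 1 receptor cochaperone, with a different response to maternal LPS by diet were looked for after their values were seen. ANXA1, which encodes the anti-inflammatory protein annexin A1, averaged 6.84 in fish oil piglets after maternal LPS and 7.48 after saline, against 7.38 and 7.02 in control-diet piglets. The effect of maternal LPS with fish oil minus that with control diet was −0.98 ± 0.274 log2 (SE; limma unadjusted p = 0.00215, adjusted p = 1). With microalgae ANXA1 averaged 7.16 after maternal LPS and 7.50 after saline, and the effect minus that with control diet was −0.69 ± 0.31 log2 (limma unadjusted p = 0.0384, adjusted p = 0.858). Both interactions use the same control-diet piglets. Macrophage markers lay on the same side in them, with 11 of 11 tested markers below 0 for fish oil (median −0.51 log2, 3 at an unadjusted p under 0.05) and 9 of 11 for microalgae (median −0.68, 4 at that p), against 10390 and 9911 of all 20668 probe sets below 0. Their mean level lay between 5.005 and 5.49 in fish oil piglets after maternal LPS and 5.03 and 5.85 after saline, between 4.97 and 5.07 and between 4.82 and 5.57 in the same microalgae groups, and between 5.31 and 5.41 and between 4.84 and 5.14 with control diet. Their part in the ANXA1 result was not tested. KLF9 averaged 5.15 in fish oil piglets after maternal LPS and 5.61 after saline, against 5.72 and 5.53 with control diet, an interaction of −0.64 ± 0.259 log2 (limma unadjusted p = 0.0236, adjusted p = 1). GLUL, which encodes glutamine synthetase, averaged 6.93 in microalgae piglets after maternal LPS and 7.90 after saline, against 7.33 and 7.21 with control diet, an interaction of −1.09 ± 0.47 log2 (limma unadjusted p = 0.0321, adjusted p = 0.858). CDKN1A averaged 6.38 in microalgae piglets after maternal LPS and 7.02 after saline, against 7.07 and 6.90 with control diet, an interaction of −0.81 ± 0.327 log2 (limma unadjusted p = 0.0234, adjusted p = 0.858). FKBP4, the cochaperone, averaged 7.88 and 7.19 in the same microalgae groups, against 7.14 and 7.40 with control diet. Its interaction was 0.95 ± 0.449 log2 (limma unadjusted p = 0.0483, adjusted p = 0.858). It was 1 of 12 tested chaperones and cochaperones above 0 at that unadjusted threshold, as were 2.87% of all probe sets. All microalgae means after maternal LPS rest on 2 piglets. Of the 22 target genes tested, 2 with fish oil and 3 with microalgae had an interaction at an unadjusted p under 0.05, all below 0, as did 1.6% and 2.54% of all probe sets in that direction, and none passed the adjusted threshold.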
